A study of Mus musculus with 24 samples.

Results

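The ATP-binding cassette (ABC) transporters were described across brain endothelial libraries of mice with and without the transcription factor Sox17. Members were the protein-coding genes with symbols from Abca to Abcg followed by a number, other than Abcc9, whose mean count reached 10 or more in any of the 8 groups. The symbols matched 49 genes, and 40 of them reached the threshold, of 17159 genes that did so among the 45468 in the tables. The other 9 genes (Abca12, Abca13, Abca14, Abca15, Abca16, Abcb5, Abcb11, Abcc2 and Abcg8) stayed below it. Just inside it were Abcc12, Abcg5 and Abca17, with highest group means of 15.33, 21 and 21.67 counts, and just outside it Abcg8, Abcc2 and Abca13, with 6.67, 4.33 and 3 counts. Of the 40 members, 33 had at least 10 counts in all 8 groups, and 7 passed through some groups only (Abca6, Abca17, Abcb4, Abcc3, Abcc12, Abcg3 and Abcg5), so counts over the members are given as a description. Abcc9, a subunit of potassium channels that is used as a pericyte marker, was not a member.

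Messenger RNA came from brains of E15.5 embryos, of pups at postnatal days 5 (P5) and 9 (P9) and of adult mice, after depletion of CD45-positive leukocytes and selection on CD31, an endothelial surface protein. Every animal was Sox17flox/flox and received tamoxifen. Animals that also carried Cdh5(PAC)-Cre-ERT2, a tamoxifen-activated recombinase driven by an endothelial promoter, form the Sox17iECKO group (KO), and animals without it the wt group, with 3 libraries of each genotype at each stage. Tamoxifen went to the mothers of the embryos in 2 injections of 1 mg on days 11.5 and 13.5 after conception. Pups of both postnatal stages had 100 µg at postnatal day 1. Adults were treated at 6 weeks of age with 4 injections of 1.5 mg and taken 1 week later. The labels call the libraries independent biological replicates and do not say whether a library pooled animals. E15.5 and P5 brains were dissociated with one kit and P9 and adult brains with another, so comparisons of P5 with P9 and of E15.5 with the adult also compare kits, and schedules and times since tamoxifen differ between stages.

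The libraries held 12301779 to 19830600 counts each, and a count of 0 allows up to 0.134 to 0.252 counts per 1000000 (CPM, scaled to the effective library size), by counting error only. Sox17 in KO libraries stood at 10.1%, 6.01%, 7.01% and 17.8% of wt at E15.5, P5, P9 and in the adult, with no overlap between genotypes at any stage. None of 16 endothelial identity markers was at 0 in any library. In the wt groups their summed level was lowest at E15.5, at 5730 to 6790 CPM, then 18700 to 20800 CPM (P5), 20400 to 20700 CPM (P9) and 15900 to 17200 CPM (adult). Libraries numbered 3 of both genotypes at E15.5 stood apart, with 726 (wt) and 856 (KO) CPM of summed pericyte markers against 1580 to 2220 in the other 4. A lower level in such bulk RNA cannot separate fewer cells of a type from less RNA per cell.

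ABC proteins bind and hydrolyse ATP, and most of them use it to move molecules across membranes. In brain capillaries the efflux pumps P-glycoprotein (encoded in mice mainly by Abcb1a), breast cancer resistance protein (Abcg2) and multidrug resistance protein 4 (Abcc4) sit on the blood-facing membrane and return drugs and conjugates to the blood, which makes them a defining part of the blood-brain barrier. Other members export cholesterol and phospholipids, import fatty acids into peroxisomes, or serve mitochondria and lysosomes, and the E and F branches lack membrane domains and act on ribosomes. By these roles the members comprised 9 efflux pumps, 14 sterol and lipid transporters, 4 mitochondrial, 5 peroxisomal or lysosomal transporters, 4 translation factors and 4 others.

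The sequences upstream of 4 members that changed in the P9 comparison below are shown. Abcc4 and Abcg2 were higher in KO there, and Abca1 and Abce1 lower. The windows of Abcc4 and Abcg2 differ widely in composition. Those of Abca1 and Abce1 held 20 CpG pairs each and 61.6% and 60.4% G and C. Windows of the other members lower there, Abcd3, Abcf1 and Abcf2, held 34, 25 and 13 CpG pairs and 72%, 66% and 52.8% G and C. RefSeq windows of 250 bases before the annotated start (GRCm38.p6, the same assembly as mm10) were found for 28 of the 40 members. Each is written 5′ to 3′ along the gene's own strand, with matches to the motifs searched in capitals.
Abcc4, chr14:118706220-118706469, minus strand: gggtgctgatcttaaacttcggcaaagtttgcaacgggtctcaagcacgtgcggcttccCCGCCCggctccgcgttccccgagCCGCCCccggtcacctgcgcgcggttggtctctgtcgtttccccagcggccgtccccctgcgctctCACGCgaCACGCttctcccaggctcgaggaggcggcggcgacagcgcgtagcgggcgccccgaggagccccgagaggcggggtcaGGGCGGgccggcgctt
Abcg2, chr6:58584283-58584532, plus strand: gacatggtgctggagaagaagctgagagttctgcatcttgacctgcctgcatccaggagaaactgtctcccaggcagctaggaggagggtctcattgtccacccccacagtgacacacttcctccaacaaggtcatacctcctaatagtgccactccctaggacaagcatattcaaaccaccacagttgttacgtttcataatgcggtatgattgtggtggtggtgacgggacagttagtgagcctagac
Abca1, chr4:53159896-53160145, minus strand: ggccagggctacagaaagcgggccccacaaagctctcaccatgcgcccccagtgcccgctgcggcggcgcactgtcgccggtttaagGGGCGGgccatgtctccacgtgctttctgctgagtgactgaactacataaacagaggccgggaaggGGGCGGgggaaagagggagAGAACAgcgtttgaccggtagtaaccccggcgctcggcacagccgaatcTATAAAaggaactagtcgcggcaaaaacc
Abce1, chr8:79711741-79711990, minus strand: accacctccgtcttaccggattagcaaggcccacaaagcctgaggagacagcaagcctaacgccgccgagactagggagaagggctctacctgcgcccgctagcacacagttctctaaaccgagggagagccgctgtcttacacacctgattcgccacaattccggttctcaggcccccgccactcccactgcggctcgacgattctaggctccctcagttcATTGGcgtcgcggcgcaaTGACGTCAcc
The Abcc4 window held 35 CpG pairs and 72% G and C, with 3 GC boxes (GGGCGG) and 2 aryl hydrocarbon receptor cores (GCGTG). The Abcg2 window, at the nearest of 3 listed starts, held 3 CpG pairs and none of the 8 motifs. The Abca1 window held 2 GC boxes, a TATA box (TATAAA) and a glucocorticoid receptor hexamer (AGAACA). The Abce1 window held a CCAAT box (CCAAT) and a cAMP response element (TGACGTCA), which occurred in 1.55% of all 32851 windows. Member windows had a median of 15 CpG pairs against 6 over all windows, and 61% against 52.4% G and C. Each member gave 1 window, at the start nearest its deposited 5′ end. All windows took every listed start of every gene, with no count threshold. The sets are thus unlike, here and for the motifs, and a difference between them is a description only. Counting both strands, 15 of 28 member windows held a GC box (32.7% of all windows), 7 a CCAAT box (33.8%), 4 a TATA box (12.4%), 3 a glucocorticoid receptor hexamer (16.1%) and 9 an aryl hydrocarbon receptor core (28.2%). A SOX motif (ACAATGG) was found in 1, that of Abcc12, whose window lay 14096 bases from the deposited 5′ end (3.02% of all windows), and a TCF/LEF motif (CTTTGAT) in 0 (3.21%). The Abcb1a window is not shown, because its RefSeq start lay 92986 bases from the 5′ end of the gene in the deposited tables.

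The KO comparison asked which members differed between KO and wt at each stage. Only KO animals carried the recombinase, so its effects and those of losing endothelial Sox17 cannot be told apart here. At P9 13 of the 40 members were called (adjusted p under 0.05, edgeR quasi-likelihood test, adjusted over all genes), which is 32.5% of the members beside 28% of all genes. Of these, 8 were higher in KO (13.5% of all genes) and 5 lower (14.6%), a split that became 3 and 15 when libraries were scaled to the endothelial identity genes and 5 and 8 when scaled to those without barrier genes. Those scalings moved the median log2 fold change of all genes from 0.02 to -0.51 and -0.22. The members' median was 0.15 by the standard TMM scaling, and -0.38 and -0.08 by the others. The KO and wt libraries did not overlap for 10 members that were higher and 8 that were lower, beside 19% and 21.7% of all genes. No member was called at E15.5 (0.548% of all genes were), at P5 (0.53%) or in the adult (0.0874%). Libraries did not overlap at these stages for 3 members higher and 1 lower at E15.5 (4.99% and 3.36% of all genes), 3 and 3 at P5 (7.8% and 7.23%) and 2 and 2 in the adult (5.09% and 5.79%).

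**Figure D1:**
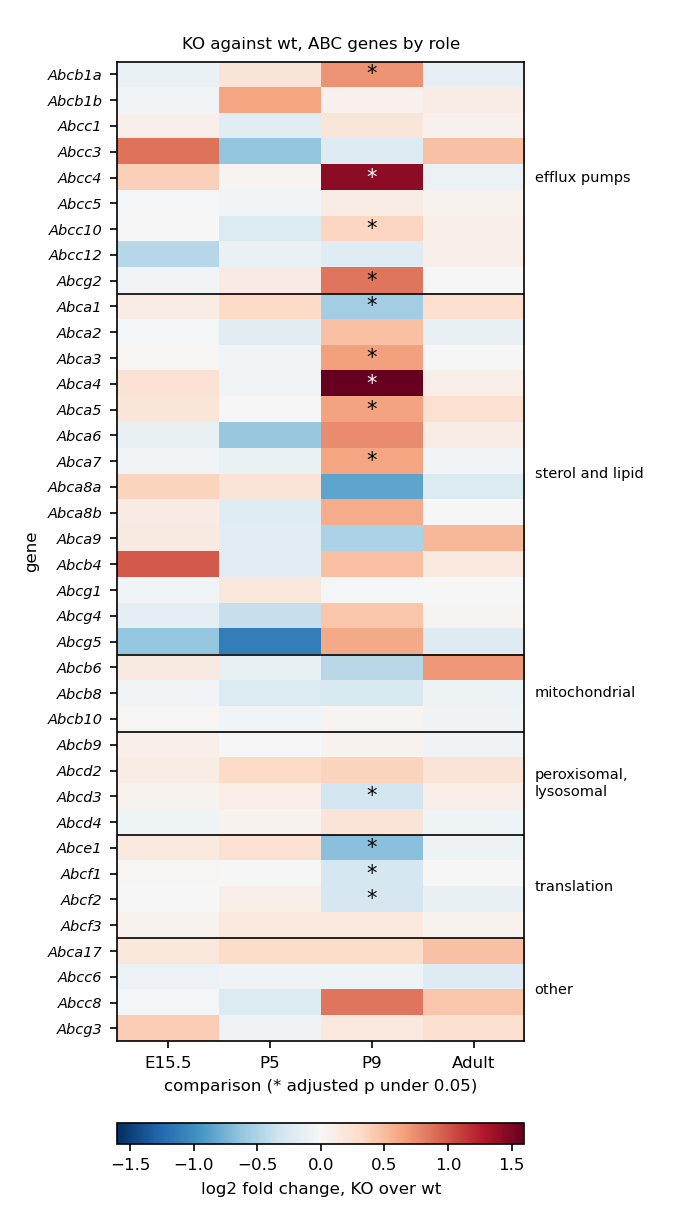
Log2 fold change of KO against wt for 38 members (rows, grouped by role) at 4 stages (columns), by colour, with a star where the adjusted p was under 0.05. The 13 stars all lie in the P9 column, from -0.67 for Abce1 to 1.59 for Abca4; with libraries scaled to endothelial identity genes, Abcc10 changed sign at P9 to -0.2.

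The efflux pumps called at P9 were all higher in KO, with Abcc10 the only one to change sign under another scaling. Abcb1a (ENSMUSG00000040584, mm10 chr5:8660077-8748575) stood at 643, 683 and 649 CPM in the P9 wt libraries and at 1090, 1170 and 998 CPM in KO. Every KO library was above every wt library, and the difference was 0.72 ± 0.11 on the log2 scale (SE, n = 3 per genotype; edgeR adjusted p = 4e-05). That call was lost when libraries were scaled to endothelial identity genes (0.15, adjusted p = 0.19), and it held in the other 13 alternatives run. Abcg2 (ENSMUSG00000029802, chr6:58584523-58692869), whose product exports drugs and sulphated conjugates, gave 207, 223 and 189 CPM in wt and 402, 362 and 350 CPM in KO, again without overlap. It rose by 0.85 ± 0.11 on the log2 scale (SE; edgeR adjusted p = 3.3e-06), and by 0.29 when scaled to endothelial identity genes.

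Abcc4 (ENSMUSG00000032849, chr14:118482692-118706219), a pump for cyclic nucleotides, prostaglandins and drug conjugates, moved furthest among the pumps. Its libraries gave 190, 197 and 197 CPM in wt and 504, 654 and 417 CPM in KO. The wt libraries were nearly equal, the KO libraries spread, and the lowest KO library was more than the highest wt library. The log2 fold change was 1.43 ± 0.13 (SE; edgeR adjusted p = 1.5e-08), and it stayed called in all 14 alternatives run, at 0.85 to 1.56. Abcc10, multidrug resistance protein 7, gave 23.9, 27.7 and 29.7 CPM in wt and 29.9, 32.2 and 41.1 CPM in KO. Its libraries met without overlapping, and its call (0.34 ± 0.13, edgeR adjusted p = 0.048) was kept in 5 of the 14 alternatives. It was lost without P9 wt library 1 (0.26, adjusted p = 0.21), wt library 2 (0.36, 0.086) or KO library 3 (0.19, 0.32). It reversed to -0.2 under scaling to endothelial identity genes.

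The remaining 5 pumps were not called at P9. Abcb1b, the second mouse gene for P-glycoprotein and the chromosomal neighbour of Abcb1a, had few counts, with means of 14 to 40.33 over the groups. It stood at 1.57, 1.59 and 2.14 CPM in wt and 1.77, 2 and 1.78 CPM in KO (log2 fold change 0.07 ± 0.44, edgeR adjusted p = 0.93). The interval this leaves is too wide to compare it with Abcb1a. Abcc1, a pump for glutathione conjugates, gave 17, 19.4 and 20.5 CPM in wt and 19.6, 17.6 and 27.5 CPM in KO, and Abcc5, an exporter of cyclic nucleotides, 128, 147 and 147 CPM and 129, 133 and 196 CPM. Both overlapped between genotypes, with log2 fold changes of 0.19 (adjusted p = 0.38) and 0.12 (0.58). Of the 9 pumps 4 were thus higher (13.5% of all genes were) and 0 lower (14.6%), with a median of 0.19 against 0.02 over all genes. Under scaling to endothelial identity genes 2 pumps were higher and 0 lower, with a median of -0.35.

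**Figure D2:**
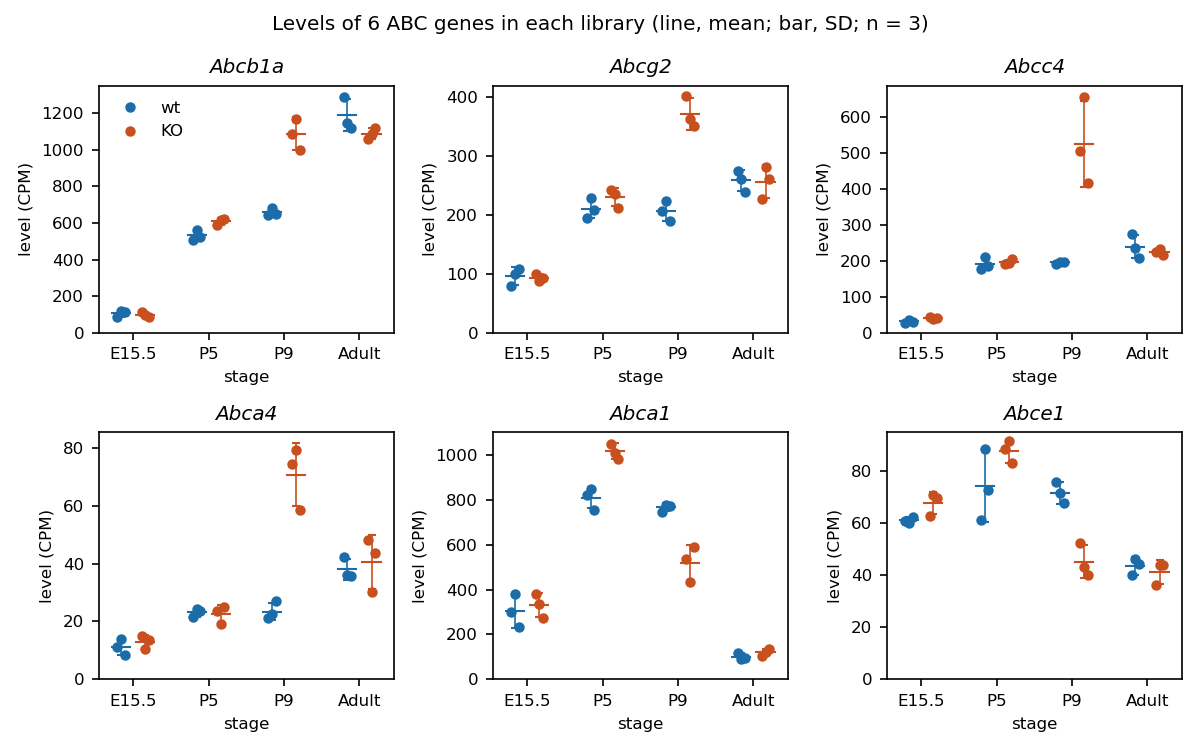
CPM of Abcb1a, Abcg2, Abcc4, Abca4, Abca1 and Abce1 in each of the 24 libraries (points), by stage and genotype, with the group mean (line) and SD (bar) of 3 libraries. At P9 the KO points of Abcb1a, Abcg2, Abcc4 and Abca4 lie above all wt points and those of Abca1 and Abce1 below them.

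Per length, which allows genes to be compared, the authors' FPKM values showed the same 3 pumps as a larger part of the family's RNA in P9 KO. Abcb1a, Abcg2 and Abcc4 together made up 33.3% ± 0.866 (SD, n = 3) of the summed FPKM of all members in P9 wt, with libraries at 32.4% to 34%. In P9 KO they made up 49.3% ± 5.34 (SD, n = 3), with libraries at 43.6% to 54.2%, and the ranges did not overlap. This share does not use the library scaling, but it also moves with the other members and with the cells in a library. Abca1 went from 12.6% of the same sum in P9 wt to 6.78% in P9 KO. The endothelial marker sum was higher in P9 KO, as given below, and its part in the share was not tested. In the adult the 3 pumps made up 37.4% in wt and 36.7% in KO. In P9 KO Abcc4 (81.4 FPKM) and Abcg2 (66.5) stood below Abcb1a (177), whereas in P9 wt Abca1 (71.2) came next after Abcb1a (115).

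Among the 14 sterol and lipid transporters 4 were higher in P9 KO (13.5% of all genes were) and 1 lower (14.6%), with a median of 0.53. Under scaling to endothelial identity genes 1 was higher and 4 lower, with a median of 0.01. The largest rise of the family was that of Abca4 (ENSMUSG00000028125, chr3:122044443-122180123), a flippase for retinoid-lipid adducts best known from photoreceptors. It stood at 21.1, 22.4 and 26.9 CPM in wt and at 74.7, 79.3 and 58.7 CPM in KO. The groups were far apart, and the log2 fold change was 1.59 ± 0.18 (SE; edgeR adjusted p = 4.9e-07), between 1.02 and 1.7 in the 14 alternatives, all called.

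Abca3 (chr17:24351950-24410201), which loads phospholipids into the lamellar bodies of lung cells, was the tightest of the changed genes. Its libraries gave 151, 153 and 163 CPM in wt and 243, 241 and 249 CPM in KO. Neither genotype spread by more than a small part of the gap, and the log2 fold change was 0.65 ± 0.08 (SE; edgeR adjusted p = 1.5e-06). Under scaling to endothelial identity genes it was 0.09 and no longer called (adjusted p = 0.54). Abca5, a transporter of endosomes and lysosomes, gave 7.33, 10 and 9 CPM in wt and 14, 13.4 and 13.8 CPM in KO. All KO libraries were higher (0.64 ± 0.19, edgeR adjusted p = 0.015), but without P9 wt library 1 the call was lost (0.52, adjusted p = 0.088), as it was under both endothelial scalings (0.08 and 0.38).

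Abca7, a phospholipid transporter linked to Alzheimer's disease risk, was called on 1 library. It gave 63.1, 60 and 70 CPM in wt and 87.3, 67.1 and 144 CPM in KO, so the groups overlapped. Its log2 fold change of 0.63 ± 0.16 (edgeR adjusted p = 0.0053) fell to 0.25 without P9 KO library 3 (adjusted p = 0.094). The call was also lost with the 6 P9 libraries fitted alone (0.61, adjusted p = 0.12) and under both endothelial scalings (0.1 and 0.4). P9 KO library 3 also held the highest values of Abca2, Abcc8 and Abcg4 at P9, 275, 34.5 and 14.2 CPM. Its summed neuronal markers came to 431 CPM, against 196 to 246 in the other 5 P9 libraries, and the part of the neuronal markers in these values was not tested.

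Abca1 (ENSMUSG00000015243, chr4:53030787-53159895), which hands cholesterol and phospholipid to apolipoprotein A-I, was lower in P9 KO. It gave 748, 780 and 776 CPM in wt and 537, 432 and 590 CPM in KO. All KO libraries were below all wt libraries, and the change was -0.56 ± 0.15 on the log2 scale (SE; edgeR adjusted p = 0.0078), called in all 14 alternatives at -1.11 to -0.46. Abcg1, its partner in sterol efflux to lipoproteins, did not move with it by TMM scaling: its log2 fold change was -0.02 (edgeR adjusted p = 0.91). Abca8a had non-overlapping libraries too, at 1.57, 1.59 and 2.21 CPM in wt and 0.589, 1.09 and 1.04 CPM in KO, but its log2 fold change of -0.85 ± 0.32 missed the threshold (adjusted p = 0.052).

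Of the 4 translation factors 3 were lower in P9 KO (14.6% of all genes were) and 0 higher (13.5%), with a median of -0.28. All 4 were called lower under scaling to endothelial identity genes, which lowered the median of all genes too. Abce1 (ENSMUSG00000058355, chr8:79683442-79711740), which splits ribosomes after termination so that their subunits can be used again, gave 76, 71.6 and 67.7 CPM in wt and 52.4, 43.2 and 40 CPM in KO. Its KO libraries were all lower, by -0.67 ± 0.12 on the log2 scale (SE; edgeR adjusted p = 0.00017), and it was called in all 14 alternatives at -1.23 to -0.6. The falls of the others were smaller, and their calls lay near the threshold. Abcf1, a partner of initiation factor eIF2, gave 161, 166 and 173 CPM in wt and 147, 132 and 131 CPM in KO (-0.28 ± 0.1, edgeR adjusted p = 0.032). Abcf2 gave 88.8, 92.7 and 95.8 CPM in wt and 79.8, 75.4 and 74.5 CPM in KO (-0.27 ± 0.09, edgeR adjusted p = 0.029). Neither overlapped between genotypes. The Abcf1 call was lost without P9 wt library 1, 2 or 3 or KO library 2 or 3 (adjusted p 0.052 to 0.1) and the Abcf2 call without wt library 2 or 3 or KO library 2 or 3 (0.055 to 0.096), while the log2 fold changes stayed at -0.31 to -0.26 and -0.27 to -0.25. Both calls were also lost with DESeq2 size factors (-0.22 and -0.21, adjusted p 0.089 and 0.087). Abcf3 gave 60.5, 66.7 and 60.9 CPM in wt and 66.9, 68.6 and 73.3 CPM in KO, and its log2 fold change of 0.15 did not pass (adjusted p = 0.24).

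Of the 5 peroxisomal or lysosomal transporters 1 was called at P9, beside 28% of all genes. Abcd3, the major peroxisomal membrane transporter of long branched fatty acids, gave 84.7, 90.9 and 85.8 CPM in wt and 77.2, 70.6 and 62.5 CPM in KO. The KO libraries were lower without overlap (-0.31 ± 0.09, edgeR adjusted p = 0.008), and with no filter on low counts the adjusted p rose to 0.083. None of the 4 mitochondrial transporters was called, with a median of -0.29; 2 of them passed an unadjusted p of 0.05, DESeq2 and limma-trend called 0 of them, and the endothelial identity scaling called 3 lower. Abcb8, part of a mitochondrial potassium channel complex, gave 41.9, 42.3 and 46.6 CPM in wt and 35.3, 35.1 and 40.4 CPM in KO (-0.24, adjusted p = 0.099). Among the 4 other members 0 were called by edgeR, DESeq2 or limma-trend, and 1 passed an unadjusted p of 0.05. The highest of them, Abcc6, whose loss causes ectopic mineralisation, gave 152, 156 and 167 CPM in wt and 137, 139 and 176 CPM in KO.

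At the other stages few members came near the threshold. At E15.5 Abcc4 and Abcb4 (the phosphatidylcholine flippase gene next to Abcb1b) passed an unadjusted p of 0.05, at P5 Abca1 and Abcb8, and in the adult 0 members. DESeq2, limma-trend and all other alternatives run called 0 members at these stages. Abcc4 gave 27.8, 36.3 and 28.9 CPM in E15.5 wt and 43.4, 37.8 and 39.9 CPM in KO. Its KO libraries all lay above the wt libraries, with a difference of 0.38 ± 0.13 on the log2 scale, with an adjusted p of 0.53. Abca1 at P5 gave 825, 852 and 758 CPM in wt and 1050, 1010 and 986 CPM in KO (0.32 ± 0.15, adjusted p = 0.63), which is the opposite direction to P9. Abcb1a in the adult gave 1290, 1150 and 1120 CPM in wt and 1060, 1090 and 1120 CPM in KO, so that the groups touched, and its log2 fold change was -0.13 ± 0.11 (adjusted p = 1).

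The difference between stages was itself tested. The KO effect differed between stages for 8 of the 40 members (20%, beside 13.5% of all genes): Abcc4, Abca4, Abca3, Abcg2, Abcb1a, Abce1, Abca1 and Abcd3. Under scaling to endothelial identity genes this call was lost for Abca3 (adjusted p = 0.76), Abcg2 (0.28) and Abcb1a (0.15). The P9 effect differed from the E15.5, P5 and adult effects in turn for 10, 10 and 8 members, beside 15.8%, 15.7% and 13.2% of all genes. For Abcc4 the P9 effect exceeded those at E15.5, P5 and in the adult by 1.05, 1.39 and 1.52 on the log2 scale (edgeR adjusted p = 0.00033, 1.1e-05 and 3.6e-06), and for Abcb1a by 0.83, 0.53 and 0.85. For Abce1 it was lower by differences of -0.82, -0.91 and -0.59, and for Abca1 of -0.68, -0.89 and -0.83. These 3 differences share the P9 libraries.

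Averaged over the 4 stages, 4 members were called (10%, beside 8.67% of all genes), 4 higher (4.8% of all genes) and 0 lower (3.87%): Abca4 by 0.47, Abcc4 by 0.44, Abcg2 by 0.23 and Abca3 by 0.15. Each of these 4 was called at P9 only, with an effect that differed between stages. Their averages therefore do not show an effect shared by all stages. Scaled to endothelial identity genes, 2 members were higher and 6 lower, Abca3 became -0.02, and Abcg2 was no longer called (0.06, adjusted p = 0.43, and 0.13, 0.12, without barrier genes). The Abca3 call was also lost without barrier genes (0.05, edgeR adjusted p = 0.69) and with no filter on low counts (0.15, 0.15). Abcb1a missed the threshold at 0.17 (edgeR adjusted p = 0.066), and 7 of 32 alternatives called it, with adjusted p from 0.019 to 1. No member fell by edgeR, and 10 passed an unadjusted p of 0.05 in either direction. The DESeq2 test and limma-trend also called 0 lower, and Abcb8 was called lower without E15.5 wt library 3 or P9 KO library 3.

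Markers of endothelial and other cells moved with the P9 comparison. The 16 endothelial identity markers summed to 20400 to 20700 CPM in P9 wt and 27800 to 33700 CPM in P9 KO, with 10 higher and 2 lower. The 11 of them that are not barrier genes summed to 12500 to 12700 CPM in wt and 14000 to 16000 CPM in KO. Pericyte markers summed to 3100 to 4210 CPM in wt and 824 to 2010 CPM in KO, with 8 of 11 lower and 0 higher. Fibroblast markers went from 345 to 455 CPM in wt to 213 to 295 CPM in KO, with 5 of 8 lower and 1 higher. Astrocyte markers went from 617 to 695 CPM to 921 to 1370 CPM, with 6 of 10 higher and 0 lower. Smooth muscle markers summed to 614 to 644 CPM in wt and 820 to 986 CPM in KO, with 1 of 7 higher and 3 lower. The part of these shifts in the values of Abcb1a, Abcg2, Abcc4, Abca3 and Abca1 was not tested beyond the endothelial scalings given above.

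The pathways around the pumps were read from lists of named genes, beside 13.5% of all genes higher and 14.6% lower at P9. The counts under scaling to endothelial identity genes (the identity scaling) follow each, and most of them turned towards lower. That scaling lowered the median of all genes too, as given above. The shares of all genes given here are by TMM scaling, so they are no measure for the counts by the identity scaling. Of 13 carriers that take up organic anions and drugs, 6 were higher and 2 lower in P9 KO (3 and 6 by the identity scaling). Slco1a4, a bile salt and conjugate carrier of brain capillaries, rose by 1.49 on the log2 scale, and it is itself among the endothelial identity genes. Slco2a1, a prostaglandin carrier, rose by 1.3, and Slc29a1, a nucleoside carrier, fell by 0.43. Of 17 drug-metabolism enzymes 8 were higher and 1 lower (3 and 4 by the identity scaling), among them the sulphotransferase gene Sult1a1 (4.39) and the glutathione transferase gene Gstm1 (1.47), with Gstk1 lower (-1.01). Of 15 nuclear and xenobiotic receptors and their partners 6 were higher and 0 lower (2 and 6 by the identity scaling), including Ahr, the aryl hydrocarbon receptor (0.95). Among the 6 was the oestrogen receptor gene Esr1, higher in KO at all 4 stages (4.51 at P9). The Cre-ERT2 transgene of KO animals contains an oestrogen receptor sequence, and its reads and those of Esr1 cannot be told apart here.

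All 17 tested genes of a list of glucocorticoid-induced genes were higher in P9 KO and 0 lower (16 and 0 by the identity scaling), and their summed level went from 1300 to 1460 CPM in wt to 4280 to 5840 CPM in KO. Hif3a rose by 6.45 on the log2 scale, Map3k6 by 5.77 and Zbtb16 by 5.46. The list had 0 calls at E15.5 and in the adult and 1 at P5 (Cdkn1a, 1.2), where its summed level was 1530 to 1660 CPM in wt and 1930 to 2180 CPM in KO, without overlap. Of 14 canonical Wnt targets 2 were higher and 5 lower at P9 (1 and 11 by the identity scaling), with Lef1 at -0.55 and Fgfbp1 at 2.3. The 5 lower include Sox17 itself, the gene deleted in KO, whose fall was set by the design.

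Partners of the other roles moved in both directions. In the list of cholesterol efflux and liver X receptor response, which holds genes that act with Abca1, 2 of 14 were higher (Apoe 1.03 and Mylip 0.93) and 2 lower, among them Pltp (-0.68), against 1 and 6 by the identity scaling. Of 13 partners in ribosome recycling and initiation, where Abce1 acts, 1 was higher (Eif2ak4, 1.51) and 2 lower (Eif3j1 -0.62 and Eif2s1 -0.52), against 1 and 9. Of 16 haem and iron-sulphur genes 2 were higher and 4 lower (0 and 13 by the identity scaling), with Alas1, the first enzyme of haem synthesis, at 0.82 and Glrx5 at -0.66. None of 12 peroxisomal fatty acid partners of Abcd3 was called by edgeR, and 2 passed an unadjusted p of 0.05. DESeq2 size factors gave 1 higher, and the identity scaling 10 lower.

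In wt animals most members changed with age before P5 and after P9. From E15.5 to P5 80% of members were called, beside 66.6% of all genes: 15 rose (36.2% of all genes did) and 17 fell (30.4%). From P5 to P9 5% were called, beside 5.12% of all genes: 1 rose (2.67%) and 1 fell (2.45%). From P9 to the adult 75% were called, beside 61.1% of all genes: 21 rose (30.9%) and 9 fell (30.3%). The members' median log2 changes over these intervals were -0.13, -0.05 and 0.61, against 0.09, 0 and 0.02 over all genes. The first of these counts depends on the scaling: with both endothelial scalings 3 members were higher and 30 lower from E15.5 to P5, as the median of all genes moved from 0.09 to -1.48 and -1.44. From P9 to the adult the same scalings gave 26 higher and 3 lower, and 30 and 1, with medians of all genes of 0.31 and 0.72.

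**Figure D3:**
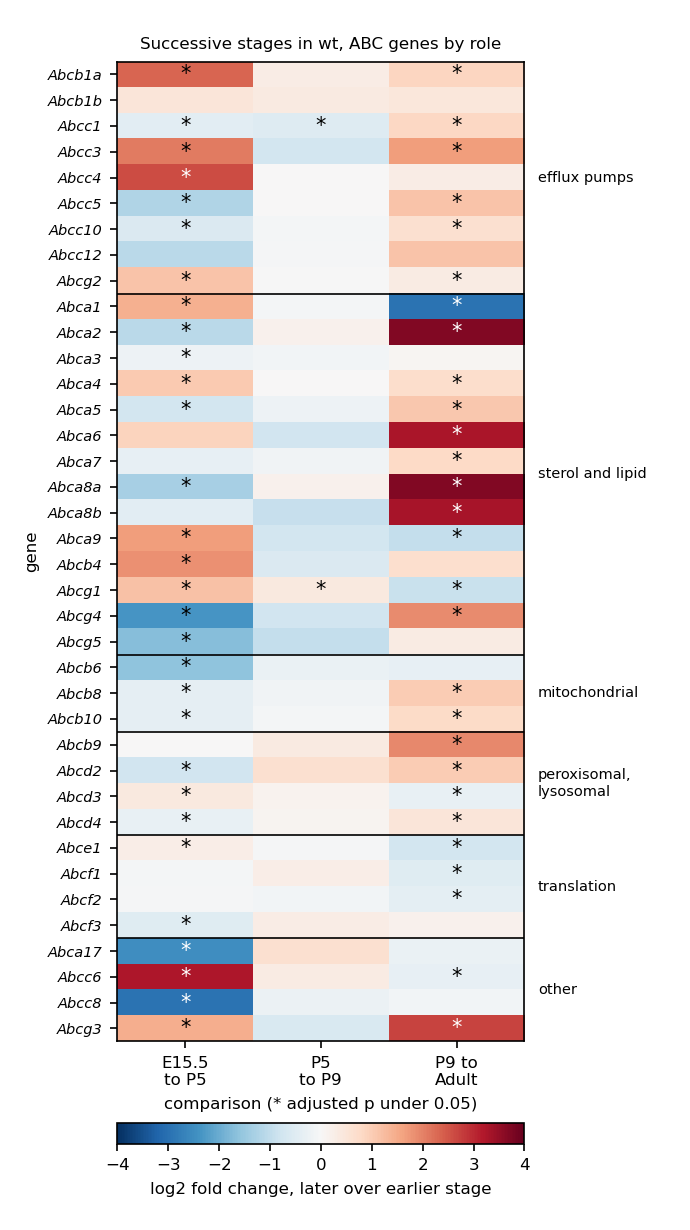
Log2 fold change between successive stages in wt for 38 members (rows, grouped by role), by colour, with a star where the adjusted p was under 0.05. The columns for E15.5 to P5 and for P9 to the adult hold 30 and 28 starred members and the P5 to P9 column 2; with endothelial scaling many rises from E15.5 to P5 change sign, among them Abca1, Abcg1 and Abcg2.

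Abcb1a and Abcc4 rose between E15.5 and P5 under every scaling. Abcb1a went from 84.9, 118 and 114 CPM to 506, 562 and 526 CPM, a log2 change of 2.33 ± 0.12 (SE; edgeR adjusted p = 2.8e-13). Abcc4 went from 27.8, 36.3 and 28.9 CPM to 176, 211 and 186 CPM (2.62 ± 0.14, edgeR adjusted p = 4.2e-13). Their libraries lay far apart between the stages, and both remained called in the same direction under the endothelial scalings, Abcb1a at 0.71 and 0.75 and Abcc4 at 1 and 1.03. Abcg2 went from 79.4, 99.8 and 108 CPM to 195, 228 and 208 CPM (1.13 ± 0.11), but its sign turned to -0.49 and -0.45 under those scalings. The endothelial marker sum itself rose over this interval, as given above, and summed neuronal markers went from 1510 to 1790 CPM down to 185 to 321 CPM. Of the 40 members, only Abcb1a, Abcc4 and Abcc6 were called higher under the endothelial scalings.

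Abcc6 made the largest rise from E15.5 to P5. It went from 14.1, 14.6 and 10.9 CPM to 130, 120 and 127 CPM, a log2 change of 3.24 ± 0.12 (SE; edgeR adjusted p = 2.2e-15). Among members whose higher group averaged 50 counts or more, the largest falls were those of Abcc8, the sulphonylurea receptor of potassium channels, from 82.2, 59.8 and 146 CPM to 14.1, 9.56 and 13.7 CPM (-2.94), and of Abcg4, a sterol transporter known from neurons, from 63, 55.4 and 50.3 CPM to 11.5, 9.56 and 11.4 CPM (-2.36). Neither overlapped between stages. Abca17 was also called lower, from a mean of 0.937 CPM to 3 counts in all over the P5 libraries. It reached the count threshold in only 2 of the 8 groups, so its fall is given as a description. The neuronal marker sum fell over the same interval, and its part in these falls was not tested. Abcb6, a porphyrin transporter, fell by 1.62, Abca8a by 1.33, Abcc5 by 1.19 and Abca2 by 1.07. Among rises, Abca1 (1.41), Abcg1 (1.18) and Abca9 (1.68) did not hold under the endothelial scalings, where the first pair were at -0.21 and -0.44 and Abca9 at 0.06 with the identity genes. The falls named here stayed falls under both.

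Between P5 and P9 only Abcg1 and Abcc1 were called. Abcg1 went from 152, 136 and 120 CPM to 174, 185 and 179 CPM (0.4, edgeR adjusted p = 0.033), and Abcc1 from 26.4, 28.7 and 27.1 CPM to 17, 19.4 and 20.5 CPM (-0.53, 0.039). Neither overlapped, yet the Abcc1 call was lost without any 1 of the 6 libraries (adjusted p 0.069 to 0.17), at log2 changes of -0.59 to -0.46. The Abcg1 call was lost without P5 wt library 2 or 3 or any P9 wt library (0.075 to 0.17), at 0.32 to 0.42. Both calls were also lost under the endothelial scalings.

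From P9 to the adult the largest rises and the largest fall were in lipid transporters. Abca2, an endosomal lipid transporter that is abundant in oligodendrocytes, went from 102, 142 and 114 CPM to 1610, 1510 and 1530 CPM, a log2 change of 3.7 ± 0.25 (SE; edgeR adjusted p = 1.2e-11). Abca8a, also known from oligodendrocytes, went from 1.57, 1.59 and 2.21 CPM to 21.1, 29.7 and 23.8 CPM (3.71 ± 0.28, edgeR adjusted p = 8.1e-11). Abca8b and Abca6, its neighbours on chromosome 11, rose by 3.3 and 3.26, the lysosomal peptide transporter Abcb9 by 1.93 and Abcg4 by 1.9. Abca6 reached the count threshold in only 4 of the 8 groups, so its rise is given as a description. A set of 9 oligodendrocyte markers summed to 1050 to 1930 CPM in P9 wt and 21700 to 26300 CPM in adult wt, and their part in these rises was not tested. Between genotypes at P9 edgeR called 0 of the 9 markers, and 1 passed an unadjusted p of 0.05.

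**Figure D4:**
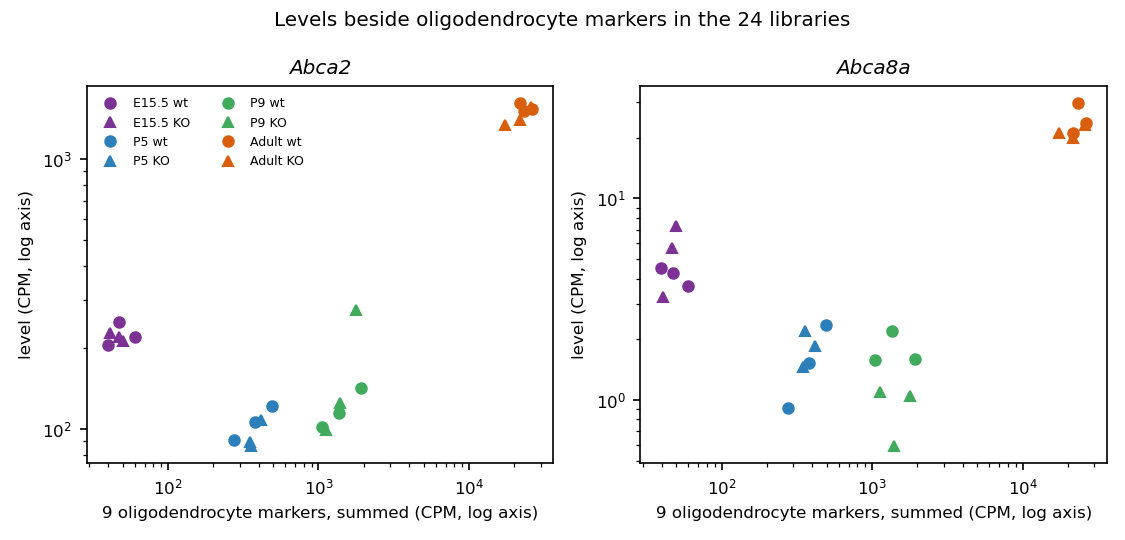
CPM of Abca2 and Abca8a (vertical log axes) against the summed CPM of 9 oligodendrocyte markers (horizontal log axis) in the 24 libraries, coloured by stage, with circles for wt and triangles for KO. The 6 adult libraries lie at the upper right, with Abca2 at 1340 to 1610 CPM, and the E15.5 libraries combine the lowest marker sums with Abca2 at 204 to 249 CPM, above all P5 libraries.

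Abca2 did not follow the oligodendrocyte markers at every stage: it stood at 249, 218 and 204 CPM in E15.5 wt, where these markers summed to only 39.9 to 60.3 CPM, and at 122, 91 and 106 CPM in P5 wt, where they summed to 276 to 493 CPM. Abca1 took the opposite course to Abca2, from 748, 780 and 776 CPM at P9 to 116, 87.6 and 96.2 CPM in the adult. This was the largest fall in the family, at -2.94 ± 0.17 on the log2 scale (SE; edgeR adjusted p = 5.2e-13), and it stayed between -3.06 and -2.21 in all 14 alternatives. Pericyte markers also fell, to 588 to 721 CPM in adult wt. Abcb1a rose further, to 1290, 1150 and 1120 CPM (0.85 ± 0.11, edgeR adjusted p = 9.5e-07), and Abcg2 to 274, 261 and 238 CPM (0.32, 0.015). Abcc4 did not pass (0.3, adjusted p = 0.051), but was called with DESeq2 size factors (0.36) and under both endothelial scalings (0.6 and 1.03).

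Of the 4 translation factors 3 fell (30.3% of all genes did) and 0 rose (30.9%) over this interval. With the scaling that leaves out barrier genes 0 fell and 2 rose. Abce1 went from 76, 71.6 and 67.7 CPM at P9 to 40, 46.4 and 44.5 CPM in the adult (-0.72, edgeR adjusted p = 2e-05), and Abcf1 fell by 0.49 and Abcf2 by 0.38. With the endothelial scaling that leaves out barrier genes these 3 turned to 0.03, 0.25 and 0.36. Abcg1 fell by 0.9 (-0.16 and not called under that scaling) and Abca9 by 0.96. The Abca9 call was lost without P9 wt library 1 (-0.83, adjusted p = 0.092) or adult wt library 3 (-0.67, 0.14), and under both endothelial scalings (-0.67, 0.13, and -0.25, 0.57).

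Over the whole span from E15.5 to the adult 31 members were called (77.5%, beside 69.6% of all genes), 21 higher (35.2%) and 10 lower (34.3%), a split of 9 and 24 when scaled to endothelial identity genes. Abcb1a rose by 3.49, Abcc6 by 3.23, Abcc4 by 2.94 and Abca2 by 2.79, and each of these stayed called and higher in all alternatives. Abcg2 rose by 1.43, but by 0.03 and without a call under scaling to endothelial identity genes. Abcc3 went from 0.22, 0.907 and 0.118 CPM, near the limit that a count of 0 allows, to 6, 4.11 and 2.71 CPM, and Abca6 rose by 3.39 from 0.177 to 0.44 CPM. Abcc3 and Abca6 reached the count threshold in some groups only, so their rises are given as a description. Lower in the adult were Abcc8 (-3.27), Abcb6 (-2.22), Abca1 (-1.61), Abcg4 (-1.24), Abcf2 (-0.51) and Abce1 (-0.49), each called in all alternatives run.

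By TMM scaling, 24 of the 40 members were called in both the first and the last interval. Of the 40, 11 fell and then rose (as did 13.7% of all genes), 7 rose and then fell (17.8%), 6 rose in both (8%) and 0 fell in both (3.92%). These shares are of all tested genes, not of the genes called in both intervals. Among the 6 with a rise in both were Abcb1a, Abcg2, Abca4, Abcc3 and Abcg3. Abcc3 and Abcg3 reached the count threshold in some groups only, so their rises are given as a description. Abcc12 alone was called in no comparison of wt stages.

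By level per length, the order of the members turned over with age. In E15.5 wt Abcf2 led at 43.6 FPKM, with no overlap with Abcf1 (36.4 FPKM), and Abcf1, Abcc5 (33.6), Abca1 (32.6) and Abca2 (29.6) each overlapped with the next. Abcb1a stood eighth there at 21.3 FPKM. In P5 wt Abcb1a (92.9 FPKM) and Abca1 (75) led without overlap, before Abcg2 (40.4). In adult wt Abcb1a (218 FPKM) and Abca2 (187) led, followed by Abcg2 (52.1), Abcc4 (42) and Abcc5 (29.8). Abca2 went from 2.43% of the summed member FPKM in P9 wt to 22.5% in adult wt, and Abca1 from 14.3% in P5 wt to 1.16% in adult wt. The 3 barrier pumps together made up 11% in E15.5 wt and 31.5% in P5 wt.

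**Figure D5:**
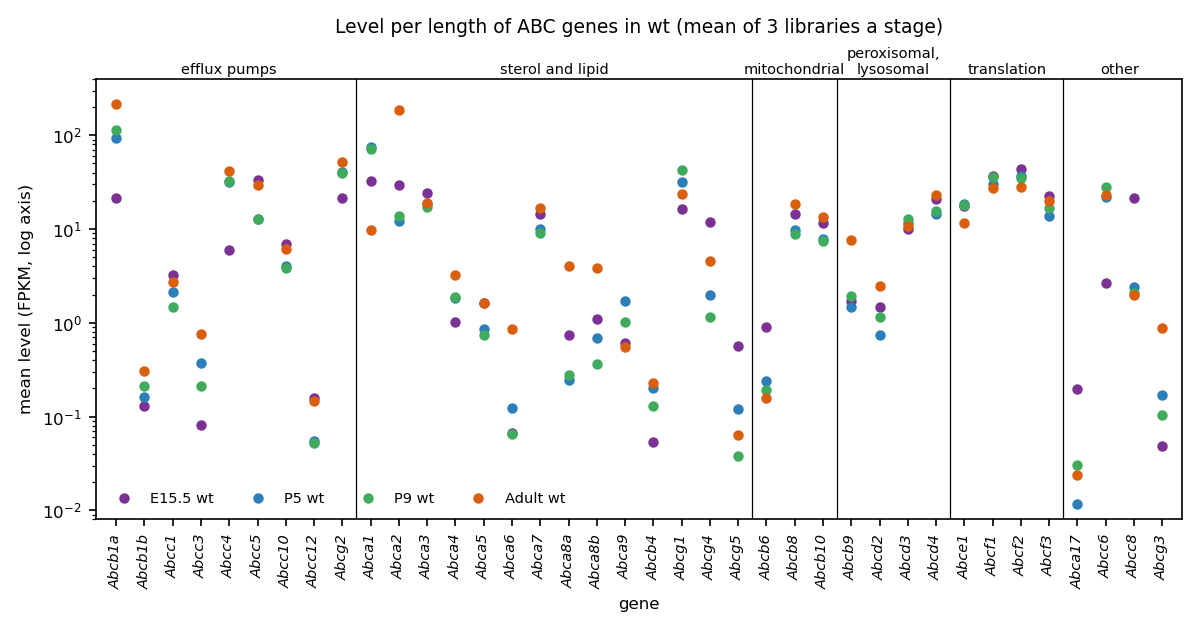
Mean FPKM (vertical log axis) of 38 members (horizontal axis, grouped by role) in wt libraries at 4 stages (coloured points, n = 3 libraries each). Abcb1a moves from 21.3 at E15.5 to 218 in the adult, and Abca1 from 75 at P5 to 9.72 in the adult.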

How the data were processed

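Polyadenylated RNA was sequenced as stranded Ion Proton libraries, per the labels' protocols. The authors deposited raw counts per gene on 1 strand. Their FPKM column divides these counts by gene length and library total, and their deposited TPM column, scaled to a common sum, was not used. Trim Galore 0.4.1, FastQC, STAR 2.5.3a, SAMtools 1.5 and build mm10 are named in the submitters' processing notes. The annotation release is not given in the sources used here.

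Counts of 24 libraries were fitted with edgeR 4.0.16 (R 4.3.3; TMM, prior count 2, quasi-likelihood, 1 mean per group, 16 residual degrees of freedom). Genes whose mean reached 10 counts in any group were tested, two-sided, with Benjamini-Hochberg adjustment over all 17159. CPM values use TMM library sizes. The script was tested on simulated data. Alternatives used DESeq2 1.42.0, limma 3.58.1, no filter, a replicate block, 6 libraries alone and each library left out. Added once the data had been seen were both endothelial scalings and a fit lacking E15.5 wt and KO libraries 3.

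Members and lists were chosen with earlier results of these data known. Named were Sox17, Abcb1a, Abcb1b, Abcg2, Abcc4, members called between genotypes, up to 6 rises and 6 falls of largest change per wt interval (called, without overlap, higher group mean of at least 50 counts), the 5 highest per length, members beside the threshold and up to 4 genes per list. Others were chosen after their values were seen. Promoter windows came from RefSeq. Some genes are counted but not reported here by name or drawn.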

Additional observations from a re-analysis of the deposited data

Results flagged for a closer look

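The effect of the KO differed between the 4 stages for 8 members, by edgeR's test of the interaction over the 24 libraries. The adjusted p was 6.2e-06 for Abcc4, 0.00018 for Abca4, 0.00019 for Abca3, 0.00054 for Abcg2, 0.0015 for Abcb1a, 0.0016 for Abce1, 0.017 for Abca1 and 0.038 for Abcd3. The P9 log2 fold changes behind them were 1.43, 1.59, 0.65, 0.85, 0.72, -0.67, -0.56 and -0.31 in that order. Of the 32 alternatives, all called Abcc4, Abca4 and Abce1, 31 called Abcg2 and Abcb1a, 30 called Abca3 and Abca1, and 17 called Abcd3. Scaling to endothelial identity genes ended the call for Abcg2 (adjusted p = 0.28), Abcb1a (0.15) and Abca3 (0.76, and 0.13 without barrier genes). Abca1 was lost without P9 wt library 2 (adjusted p = 0.051) or P9 KO library 2 (0.055).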

How the results depend on the processing

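Of 1532 single-gene values under all alternatives, 1424 kept their direction and side of the threshold, 83 lost a call, 14 gained one and 11 changed sign. With endothelial identity scaling Abca3 averaged over stages became -0.02, Abcc10 at P9 -0.2, Abcb1b at P9 -0.45, and Abca1 and Abcg1 from E15.5 to P5 -0.21 and -0.44. Without barrier genes these last were -0.18 and -0.41, and from P9 to the adult Abce1 was 0.03 and Abcf1 0.25. Abcb1a at E15.5 became 0.04 without both E15.5 libraries numbered 3. The cause was not tested.

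Members higher at P9 numbered 3 with identity genes and 5 without barrier genes, and members lower 15 and 8, 3 with DESeq2 size factors and 3 with no filter. Averaged, the scalings gave 2 and 2 higher and 6 and 1 lower, and 1 was lower without both E15.5 libraries numbered 3. From E15.5 to P5 they gave 3 and 3 higher and 30 and 30 lower. From P5 to P9, 0 were higher with either scaling or DESeq2 size factors and 3 with the 6 libraries alone, and 0 and 0 were lower with the scalings, 3 by the DESeq2 test, 4 with no filter and 4 with 6 libraries alone. From P9 to the adult they gave 3 and 1 lower. From E15.5 to the adult 9 were higher with identity genes, and 24 and 22 were lower.

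Leaving out 1 library gave 6 to 11 higher and 3 to 5 lower at P9 (3 without wt library 2 or 3 or KO library 2), 0 to 0 at E15.5, P5 and in the adult, 4 to 6 higher and 0 to 1 lower when averaged, and 6 to 9 with an effect that differed between stages. In wt it gave 13 to 15 higher and 15 to 17 lower from E15.5 to P5, 0 to 1 and 0 to 0 from P5 to P9, 20 to 22 and 8 to 9 from P9 to the adult, and 18 to 21 and 8 to 10 over the whole span.

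Same-numbered wt and KO libraries correlated in their deviations at 0.065, 0.368 and 0.486 at E15.5 but at -0.081 to 0.02 at P9, so the numbers were not taken to pair animals. At E15.5, wt library 2 with KO library 3 gave -0.472, and wt library 3 with KO library 2 gave -0.368. The replicate block gave each number the same offset at all stages, so pairing within E15.5 alone was not tested. With that block 7 members were higher and 5 lower at P9. Depth limits members with few counts, such as Abcb1b, Abca17 and Abcg5.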

Other observations

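Some members lie side by side in the genome. On mm10 chromosome 5, Abcb1a, Abcb1b and Abcb4 follow each other between 8660077 and 8959231. Abcb1b and Abcb4, at 2.45 and 2.1 CPM in adult wt, stood far below Abcb1a at 1190 CPM. On chromosome 11, Abca8b, Abca8a, Abca9, Abca6 and Abca5 lie between 109932190 and 110337716. From P9 to the adult Abca8b, Abca8a, Abca6 and Abca5 rose, by 3.3, 3.71, 3.26 and 1.07 on the log2 scale, while Abca9 was at -0.96, a call lost under both endothelial scalings (-0.67, adjusted p = 0.13, and -0.25, 0.57). Abca6 reached the count threshold in some groups only, so its rise is given as a description. Abca3 lies next to Abca17, and Abca17 had at most 21.67 counts in the mean of any group.

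Abcc10 overlaps Dlk2 on the opposite strand, and Abca3 overlaps D330041H03Rik on the opposite strand. The deposited counts are of 1 strand, per the file headers. Of the 3 ABC genes with other symbols, Tap1, Tap2 and Cftr, none was called at P9 by edgeR and 1 passed an unadjusted p of 0.05. Tap1, a peptide transporter of antigen presentation, was higher in KO at E15.5 by 1.11 on the log2 scale (edgeR adjusted p = 0.029).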
